A study of Mus musculus with 4 samples.

Results

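Polycomb repressive complex genes were examined by name: Ezh1, Ezh2, Eed, Suz12, Jarid2, Mtf2, Bmi1, Ring1, Rnf2 and Cbx7, 10 of the 50600 genes counted. All 10 were found by gene identifier. RNA-seq had been run on 4 libraries of primary T cells from C57BL/6NJ mice, numbered in the labels as biological replicates 1 to 4 of a single group. Names in the file headers describe the cells as Th0 and activated, with a time of 16 h. Helper T cells stimulated without cytokines that direct a lineage are generally called Th0, and the title of a protocol linked from the labels mentions CD4+ T cells. The labels give no age or sex and a shared donor identifier, without saying whether the cells came from separate animals. Xist, the X-linked RNA made in female cells, lay at 141, 116, 0.269 and 0.303 TPM in replicates 1 to 4 and the Y-linked gene Uty at 0, 0.0138, 5.62 and 5.01 TPM (both chosen after their values were seen), so the libraries were not all from 1 animal: replicates 1 and 2 had the female pattern and 3 and 4 the male one. P-values measure only the spread between these samples, which between replicates of the same pattern may be technical, and sex and any other difference between these pairs of libraries cannot be told apart. No resting or untreated sample is part of the series, so the values are levels in activated cells and not changes on activation.

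Polycomb proteins keep genes silent through marks on histones. Polycomb repressive complex 2 (PRC2) methylates lysine 27 of histone H3 through Ezh1 or Ezh2, and needs Eed and Suz12 to be active; Jarid2 and Mtf2 belong to alternative accessory sets that guide it to chromatin. Polycomb repressive complex 1 (PRC1) ubiquitinates histone H2A through Ring1 or Rnf2 paired with a PCGF protein such as Bmi1, and a CBX protein such as Cbx7 reads the methyl mark. In T cells Ezh2 is known to be induced on activation and to restrain cytokine and effector genes, whereas Ezh1 is the form usually associated with resting and non-dividing cells.

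The RefSeq promoter sequences of Ezh2 and Ezh1 (build GRCm38.p6) are shown because these are the alternative catalytic subunits compared within each library. They run from 120 bases before the start site to 20 bases after it, on the gene's strand. Capitals mark the E2F letters (TTTCGCGC, TTTGGCGC, TTTCCCGC or TTTGCCGC) and the CCAAT box (CCAAT), both searched on both strands.
Ezh2, chr6:47595011-47595150, minus strand: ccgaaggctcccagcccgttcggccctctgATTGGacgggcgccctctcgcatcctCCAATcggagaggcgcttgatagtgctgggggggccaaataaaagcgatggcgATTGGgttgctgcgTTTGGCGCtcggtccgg
Ezh1, chr11:101226444-101226583, minus strand: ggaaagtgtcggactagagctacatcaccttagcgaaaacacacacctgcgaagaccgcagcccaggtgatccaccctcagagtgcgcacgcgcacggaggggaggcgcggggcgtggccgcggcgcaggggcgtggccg

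Ezh2 held 3 CCAAT boxes before the start site and E2F letters at bases 4 to 11 after it, and Ezh1 held neither in this stretch. Of the 12 promoter windows of the 10 genes (250 bases before to 50 after a start), 2 had E2F letters, those of Ezh2 and Suz12, against 2.26% of all 32851 RefSeq windows. CCAAT stood in 7 of the 12, against 37.4% of all windows. The Suz12 promoter, the other with E2F letters, is shown over the 250 bases before its start.
Suz12, chr11:79992856-79993105, plus strand: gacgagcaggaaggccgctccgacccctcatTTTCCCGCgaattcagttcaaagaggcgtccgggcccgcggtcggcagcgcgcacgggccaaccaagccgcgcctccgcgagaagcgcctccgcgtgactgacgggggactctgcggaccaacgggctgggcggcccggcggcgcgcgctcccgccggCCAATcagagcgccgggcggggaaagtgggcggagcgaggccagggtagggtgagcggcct

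Of 4 further motifs searched in the 12 windows, the GC box (GGGGCGGGG) was found in 3 (Bmi1, Jarid2 and Mtf2; 11.4% of all windows), TATAAA in 1 (Jarid2; 13.6%), the E-box CACGTG in 1 (Bmi1; 7.15%) and the palindromic NRF1 motif in 0 (0.971%). CG dinucleotides numbered between 17 and 41 in 11 of the 12 windows, against a median of 7 over all windows. The other, an internal start of Mtf2, had 2. Every E2F form, the GC box, the E-box and the NRF1 motif contain CG. The shares over all windows were not matched for CG content, so they are not a like background for these motifs. The motif matches describe letters, and binding was not measured.

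Depth was 53619400 pairs of reads assigned to genes in replicate 1, 48931322 in replicate 2, 63313389 in replicate 3 and 46192242 in replicate 4. Every pair of libraries differed by more than counting noise (chi-square per degree of freedom from 7.08 to 16.9). Of 11 T cell markers 10 reached 1 TPM (a length-normalised abundance whose sum is the same in each library) in every library, Cd8a being the exception. Cd8b1, the other CD8 gene of the list, lay at 60.1, 61.1, 53.3 and 55.5 TPM in replicates 1 to 4. Markers of B cells summed to 17.0 to 28.9 TPM, of which Igkc made 11.6 to 19.4, and each of the 5 other lists (myeloid, dendritic, NK, erythroid and platelet, stromal) summed to at most 2.03 TPM. No neighbouring gene covered any exonic base of the 10 genes on their own strand, and the counting used strand.

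All 10 Polycomb genes lay above 1 TPM in every library, as did 22.1% of all genes counted and 45.2% of nuclear protein-coding genes. Their mean levels ran from 16.8 TPM for Ezh1 to 175 TPM for Suz12, with a median of 60.6 TPM, against a median of 22.9 TPM over all 12285 genes tested for spread. Suz12 lay above 88.7% and Ezh1 above 32.5% of the 9840 nuclear protein-coding genes at 1 TPM in every library. In such bulk samples fewer expressing cells and less RNA per cell cannot be told apart.

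**Figure D1:**
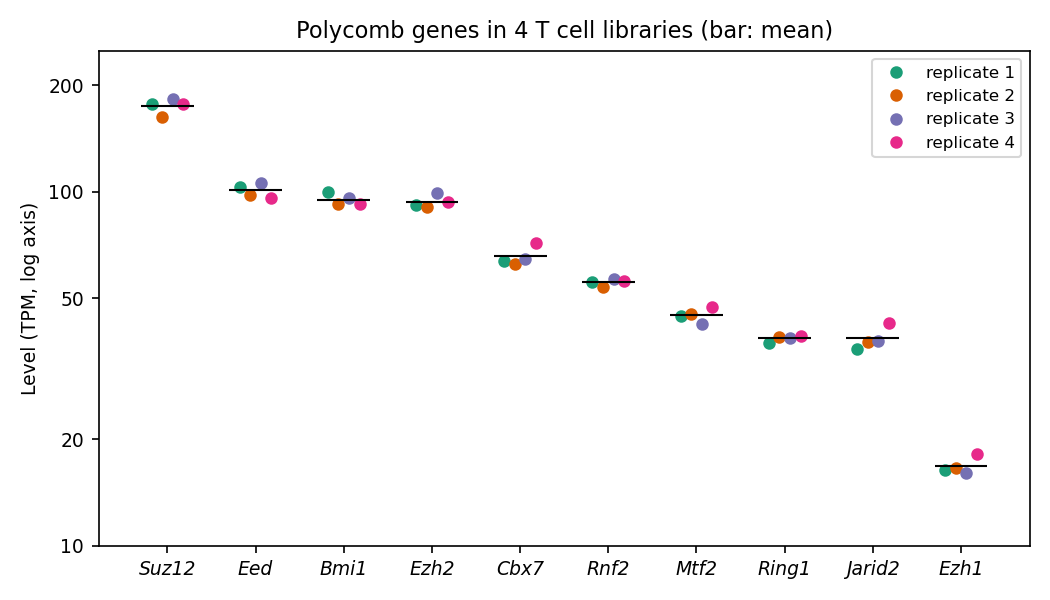
Level in TPM (log axis) of the 10 Polycomb genes, ordered by mean; points are the 4 libraries, coloured by replicate, and bars are means. Suz12 stands highest at a mean of 175 TPM, Eed, Bmi1 and Ezh2 lie together between 90.6 and 106 TPM, and Ezh1 is lowest at 16.0 to 18.2 TPM.

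Ezh2 was the predominant methyltransferase transcript. Ezh2 (ENSMUSG00000029687.16, chromosome 6, 47530139 to 47595341, mm10) lay at 91.9, 90.6, 99.2 and 93.3 TPM in replicates 1 to 4. Ezh1 (ENSMUSG00000006920.14, chromosome 11, 101191115 to 101226463) lay at 16.4, 16.6, 16.0 and 18.2 TPM. The ranges did not overlap, and the lowest Ezh2 library stood far above the highest Ezh1 library. Within libraries the Ezh2 to Ezh1 ratio of TPM was 5.60, 5.45, 6.21 and 5.13, a mean of 5.60 ± 0.45 (SD, n = 4). On the log2(TPM + 1) scale Ezh2 exceeded Ezh1 by 2.41 ± 0.11, with the same direction in each library. Each of the 7 gene pairs compared had a single direction in all libraries, so each gave the same exact sign-flip permutation p (two-sided) of 0.125, also after Benjamini-Hochberg adjustment over the 7; no lower p can be reached with this number of libraries. The ratios of replicates 1 and 2 lay between those of replicates 3 and 4, the pairs that differed in Xist and Uty. Ezh1 thus made up 15.2 ± 1.01% of the summed Ezh1 and Ezh2 TPM.

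The size of this ratio depended on the length used. The deposited exonic length joins the exons of all annotated transcripts and was 6678 bases for Ezh2 and 7440 for Ezh1, whereas their longest single transcripts in GENCODE M21 measured 2787 and 4207 bases. With the longest transcript the ratio was 7.58 ± 0.61, and without any length, from counts alone, it was 5.02 ± 0.40. Ezh2 stood above Ezh1 in 4 of 4 libraries in each case.

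**Figure D2:**
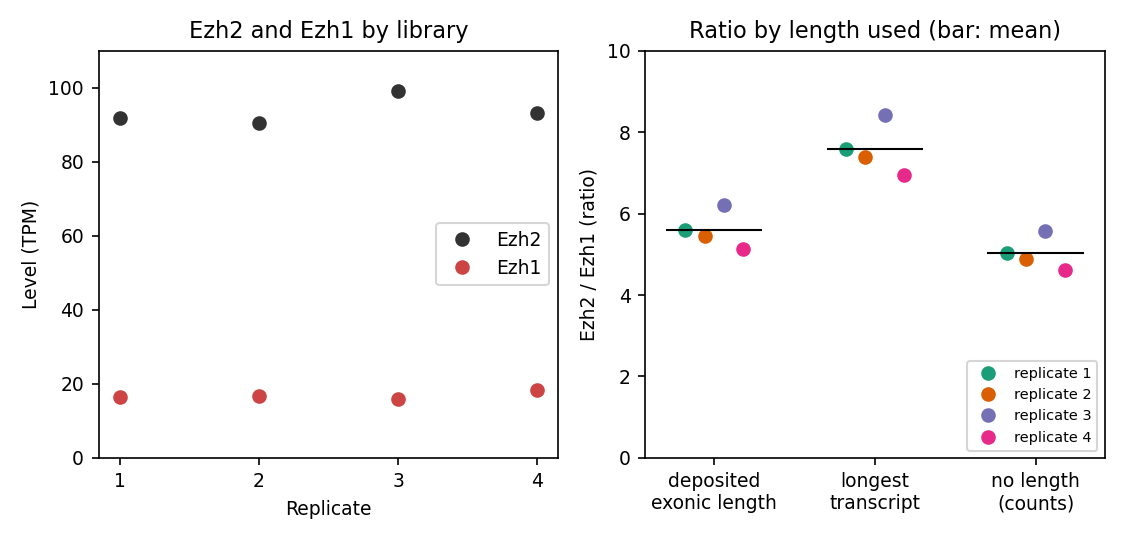
Left, Ezh2 and Ezh1 in TPM in each of the 4 libraries (points). Right, the Ezh2 to Ezh1 ratio in each library (points, coloured by replicate) and its mean (bars), computed with the deposited exonic length, the longest transcript or counts alone; means are 5.60, 7.58 and 5.02, and replicate 3 is highest and replicate 4 lowest in each.

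The obligate partners of the methyltransferases were both abundant. Suz12 (ENSMUSG00000017548.15, chromosome 11, 79993106 to 80034123), the scaffold of PRC2, lay at 177, 163, 183 and 177 TPM. Eed (ENSMUSG00000030619.9, chromosome 7, 89954654 to 89980983), which binds trimethylated H3K27 and stimulates the enzyme, lay at 103, 97.8, 106 and 95.7 TPM. The highest Eed library lay below the lowest Suz12 library. Eed minus Suz12 was -0.79 ± 0.06 on the log2(TPM + 1) scale, below 0 in 4 of 4 libraries. With the longest transcript this difference shrank to -0.09, and from counts without length it was -1.16. The size of the gap between these partners thus depended strongly on the length used. The summed Ezh1 and Ezh2 level of 111 ± 3.56 TPM stood beside 101 ± 4.77 TPM for Eed. The histone-binding subunits Rbbp7 and Rbbp4, shared with other chromatin complexes, lay at 499 ± 17.0 and 155 ± 4.33 TPM.

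Accessory subunits of both forms of PRC2 were present. Jarid2 (ENSMUSG00000038518.15, chromosome 13, 44729474 to 44921643), of the PRC2.2 form, lay at 35.9, 37.7, 37.9 and 42.5 TPM. Mtf2 (ENSMUSG00000029267.17, chromosome 5, 108065674 to 108109004), a Polycomb-like protein of the PRC2.1 form that binds CpG-rich DNA, lay at 44.4, 45.2, 42.4 and 47.1 TPM. The 2 ranges overlapped, with the highest Jarid2 value just above the lowest Mtf2 value, although Jarid2 was lower within each library. Jarid2 minus Mtf2 was -0.21 ± 0.08 on the log2(TPM + 1) scale (4 of 4 libraries). It was -0.48 with the longest transcript and turned to 0.54 from counts without length, so its direction rests on the length correction.

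Among other PRC2 accessory genes is Epop, an adaptor between PRC2.1 and Elongin B and C best known from embryonic stem cells. With the deposited exonic length it had the highest level of its list, at 155, 171, 174 and 171 TPM. Replicate 1 stood below the other three. Epop made up 43.9 ± 1.26% of the summed TPM of the 8 accessory genes listed, and Aebp2, a PRC2.2 subunit, 24.7 ± 0.936%. This order rests on the length correction, with deposited lengths of 2314 bases for Epop and 9851 for Aebp2. Counts without length were 5778, 5867, 7580 and 5318 for Epop in replicates 1 to 4. For Aebp2 they were higher in each library, at 14341, 13508, 16911 and 13679. The Polycomb-like genes Phf1 and Phf19 lay at 14.3 ± 2.21 and 17.0 ± 1.65 TPM, so that Mtf2, Phf1 and Phf19 summed to 76.0 ± 1.67 TPM against 133 ± 8.87 TPM for Jarid2 and Aebp2. The first sum leaves out the PRC2.1 adaptor gene Epop, whose own mean of 168 ± 8.64 TPM exceeded either sum. These sums therefore do not rank the forms of PRC2. Both sums and the Epop mean use the deposited exonic length alone, and by counts without length Aebp2 alone exceeded Epop. Ezhip, an inhibitor of PRC2 (AU022751 in the annotation), had 0 counts in every library, which allows up to 0.0474 to 0.0649 CPM (3 counts of the total, counting error only).

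Both E3 ligases of PRC1 were expressed, Rnf2 above Ring1. Rnf2 (ENSMUSG00000026484.13, chromosome 1, 151458004 to 151500955), also called RING1B, lay at 55.7, 53.9, 56.7 and 56.0 TPM. Ring1 (ENSMUSG00000024325.8, chromosome 17, 34020792 to 34024680), or RING1A, lay at 37.4, 38.9, 38.7 and 39.2 TPM. All Rnf2 values exceeded all Ring1 values, with little spread in either gene. Ring1 minus Rnf2 was -0.52 ± 0.04 on the log2(TPM + 1) scale (below 0 in 4 of 4 libraries), and Ring1 made up 41.0 ± 0.747% of their sum. From counts without length the difference was -0.86.

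Bmi1 was one of 3 abundant PCGF genes. Bmi1 (ENSMUSG00000026739.13, chromosome 2, 18677018 to 18686629), which activates the ligase in canonical PRC1, lay at 99.7, 92.5, 95.9 and 92.1 TPM. Its paralogue Pcgf2 (Mel18), which can take the same place, lay at 12.3, 9.66, 12.9 and 16.3 TPM. The ranges were far apart: on the log2(TPM + 1) scale Bmi1 exceeded Pcgf2 by 2.82 ± 0.29, and did so in each library. Of the summed PCGF level Bmi1 took 30.7 ± 0.860%, Pcgf5 38.4 ± 0.675% and Pcgf6 19.9 ± 0.386%. Pcgf6 is a subunit of variant PRC1, which works without the CBX proteins of canonical PRC1, and Pcgf5 is mainly found there. The place of Pcgf5 above Bmi1 rests on the length used. Its deposited exonic length was 1659 bases and its longest transcript 6443, against 3974 and 3594 for Bmi1. Counts without length were 3240, 2822, 3961 and 2522 for Pcgf5 in replicates 1 to 4. For Bmi1 they were higher in each library, at 6382, 5436, 7183 and 4915. Pcgf1, Pcgf2 and Pcgf3 took 4.27, 4.13 and 2.57%.

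Cbx7 stood above the CBX genes Cbx6, Cbx2 and Cbx8. Cbx7 (ENSMUSG00000053411.16, chromosome 15, 79915807 to 79971119) lay at 63.7, 62.3, 64.7 and 71.6 TPM. Replicate 4 was the highest and the other three lay close together. Against its mean of 65.6 ± 4.12 TPM, Cbx6 lay at 53.3 ± 2.78, Cbx2 at 32.9 ± 2.72 and Cbx8 at 7.13 ± 0.361 TPM (SD, n = 4). The lowest Cbx7 library stood above the highest library of each of these genes; the differences were not tested. Cbx6 shares 563 exonic bases with Npcd on its strand, so its level is uncertain. Of the polyhomeotic genes, whose products let PRC1 cluster, Phc2 held 73.7 ± 1.15%.

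In the order of mean levels, Suz12, Eed, Bmi1, Ezh2, Cbx7, Rnf2, Mtf2, Ring1, Jarid2 and Ezh1, some neighbours were not separated. Bmi1 and Ezh2 differed by 0.02 ± 0.07 on the log2(TPM + 1) scale, with Bmi1 higher in 2 of 4 libraries. Ring1 and Jarid2 differed by 0.00 ± 0.08. Eed exceeded Bmi1 by 0.08 ± 0.04, in 4 of 4 libraries but with overlapping ranges. The 6 other neighbouring pairs did not overlap. With the longest transcript in place of the joined exons, Ezh2 moved from rank 4 to rank 1, at 177 TPM, ahead of Suz12 at 156 TPM and Eed at 147 TPM, and Ezh1 remained at rank 10.

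The spread of each of the 10 genes between the libraries was compared with that of genes of like abundance, and none passed the threshold. In edgeR's quasi-likelihood fit over 12285 genes, 28 passed an adjusted p of 0.05 (0.228%), and 0 of the 10 members did; 0 of 10 had an unadjusted p under 0.05 (5.42% of all genes), and DESeq2 marked 0 of 10 as dispersion outliers (0.554% of all genes). The edgeR adjusted p lay between 0.996 and 0.998. The SD of log2 CPM had a median of 0.0635 over the members, against 0.102 over all genes tested, which were less abundant. Relative to the prior at its abundance, the quasi-dispersion had a median of 0.78 over the members and 0.83 over all genes tested. The SD of log2 CPM was lowest for Ring1, at 0.0266, and Rnf2, at 0.0267, where counting error alone gives about 0.0327 and 0.0242. It was highest for Jarid2, at 0.0833 against 0.0189 from counting, and Eed, at 0.0804 against 0.0187. The highest library was 1.18 times the lowest in TPM for Jarid2 and 1.05 times for Ring1 and for Rnf2.

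**Figure D3:**
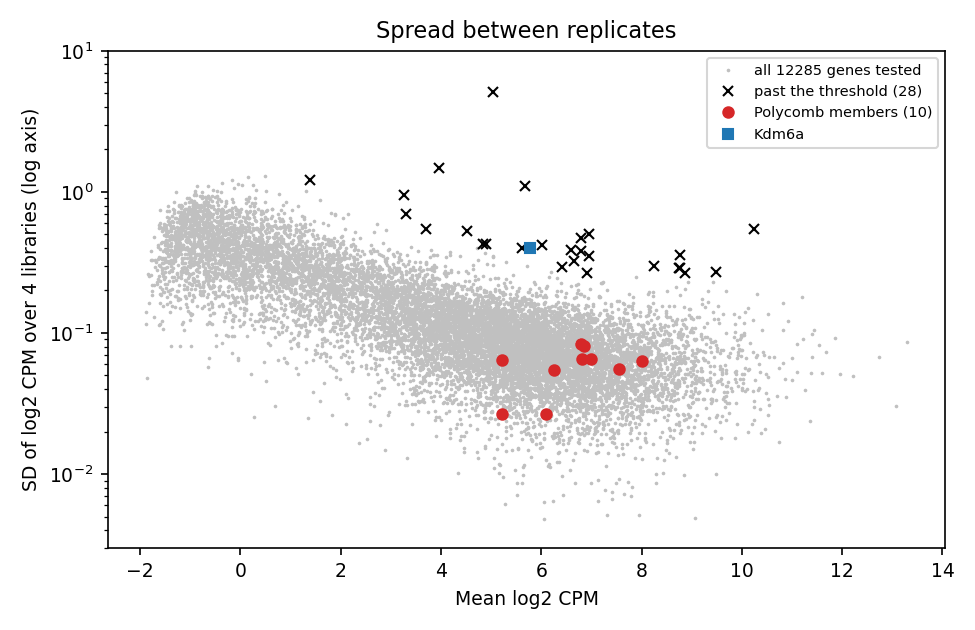
SD of log2 CPM over the 4 libraries (log axis) against mean log2 CPM for all 12285 genes tested (grey), the 28 past the threshold (crosses), the 10 Polycomb genes (red) and Kdm6a (blue square). The Polycomb genes lie between 0.0266 and 0.0833, within the grey band, and Kdm6a is among the crosses.

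The small deviations that were seen did not point one way across the genes. Replicate 3 was the highest library in TPM for Ezh2, Eed, Suz12 and Rnf2, and replicate 4 for Ezh1, Jarid2, Mtf2, Cbx7 and Ring1. On the log2 CPM scale Ezh2 deviated from its own mean by 0.08 in replicate 3 and -0.04 in replicate 4, and Ezh1 by -0.07 and 0.08. Over 15 proliferation genes (Mki67, Top2a, the Mcm2 to Mcm7 genes and others), the median deviation was 0.16 in replicate 3, with 15 of 15 above their own mean. In replicate 4 it was -0.18, with 0 of 15 above. Of all 12285 genes tested, 6196 lay above their own mean in replicate 3 and 6292 in replicate 4. Rrm2, which makes deoxynucleotides, was the proliferation gene past the spread threshold (147, 145, 183 and 119 TPM, edgeR adjusted p = 0.0289). The part of the proliferation genes in the Ezh2 and Ezh1 values was not tested.

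**Figure D4:**
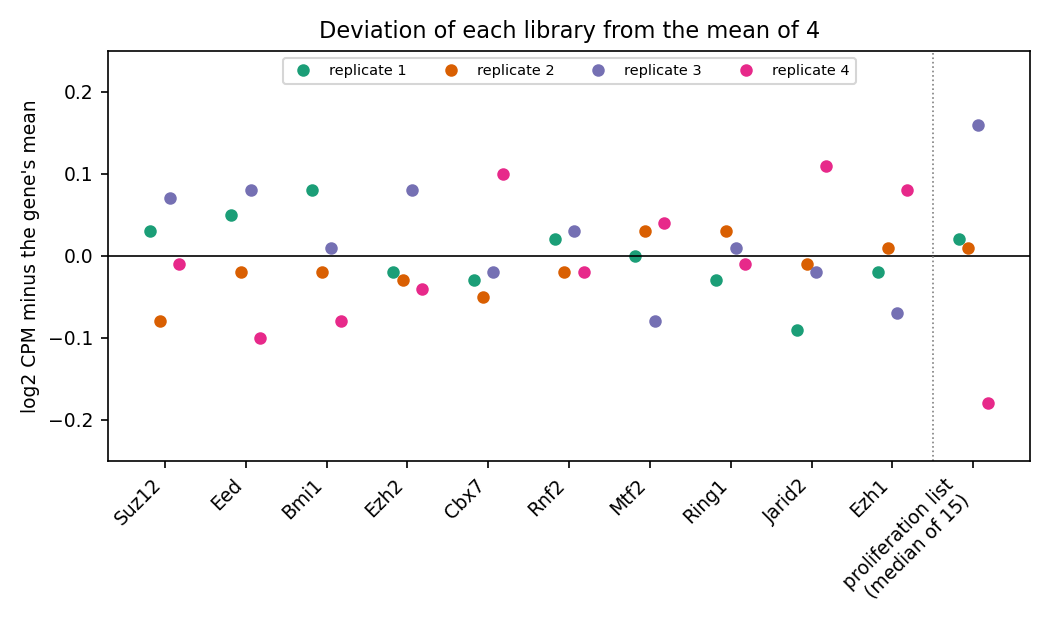
Deviation of each library's log2 CPM from the gene's mean over 4 libraries, for the 10 Polycomb genes and, right of the dotted line, the median over 15 proliferation genes; points are coloured by replicate. All members stay between -0.10 and 0.11, and the proliferation list spans -0.18 in replicate 4 to 0.16 in replicate 3.

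With 4 libraries many genes share a pattern. The protein-coding genes whose centred log2 CPM came closest to Ezh2 were Snrpa1, Scfd1 and Arhgap5 (root mean square differences of 0.00562, 0.00600 and 0.00618), but 1986 of 8668 candidates lay closer to Ezh2 than its own SD of 0.0553. For Ezh1 they were Actr5, Ppp2r5e and Tax1bp1 (0.00490, 0.00498 and 0.00628), with 2367 of 8668 closer than its SD of 0.0639.

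The rest of the pathway was also broadly expressed. Of 44 further Polycomb pathway genes 40 reached 1 TPM in all libraries, and the median of the 44 means was 32.6 TPM. Of 13 variant PRC1 partners 12 did so, led by the WD40 scaffold genes Dcaf7 (192 ± 4.34 TPM) and Wdr5 (185 ± 3.55 TPM); Auts2 was the exception, at a mean of 0.0400 TPM. Of 6 genes of the H2A deubiquitinase list, which oppose PRC1, 5 did so, led by Bap1 (119 ± 2.42 TPM) and Asxl1 (65.2 ± 4.07 TPM), while Asxl3 had 0 counts. The other two below the floor were Ezhip and Scml2.

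Of the 41 further pathway genes tested 1 passed the spread threshold (0.228% of all genes tested), the H3K27 demethylase gene Kdm6a on the X chromosome. An unadjusted edgeR p under 0.05 was found for 6 of the 41, Kdm6a among them, against 5.42% of all genes tested. Kdm6a lay at 29.1, 27.7, 17.7 and 18.3 TPM (edgeR adjusted p = 0.00794), high in replicates 1 and 2 and low in 3 and 4 with no overlap. Without replicate 1 the adjusted p was 0.0548 and without replicate 3 it was 0.0869 (range over the alternatives from 1.34e-12 to 0.0869). Uty is its Y-linked homologue, and the libraries low in Kdm6a were those with Uty and without high Xist; the part of this difference in the Kdm6a result was not tested. Kdm6a and Uty together summed to 29.1, 27.7, 23.3 and 23.3 TPM. The other demethylase gene, Kdm6b, lay at 89.4, 98.6, 84.6 and 112 TPM (edgeR adjusted p = 0.614). Kdm6a minus Kdm6b was -2.03 ± 0.43 on the log2(TPM + 1) scale (4 of 4 libraries).

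Genes that textbooks list as Polycomb targets were nearly silent. Of 39 Hox genes 0 reached 1 TPM in every library, against 45.2% of nuclear protein-coding genes, and 30 had 0 counts in all 4. The highest was Hoxb4, at 0.701, 0.343, 0.992 and 0.987 TPM. Of 24 other developmental and cell cycle targets 21 had 0 counts in all 4 libraries, among them the cell cycle inhibitor gene Cdkn2a, a classical target of Bmi1. The share of all genes with 0 counts is not given here. The LIM homeobox gene Lhx2 alone passed the floor, at 1.36, 1.54, 1.10 and 1.07 TPM. Of 8 T helper genes known to carry Polycomb marks 1 was at 1 TPM in every library, against 45.2% of nuclear protein-coding genes. This was Gata3, at 18.3 ± 0.919 TPM. Eomes fell below 1 TPM in replicate 3 alone (1.02, 1.24, 0.447 and 1.42 TPM). Tbx21 reached it in replicate 2 alone (0.274, 1.09, 0.789 and 0.239 TPM), and the others in no library. No histone mark was measured, so whether Polycomb occupied any of these genes was not tested.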

How the data were processed

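The files the authors deposited hold raw gene-level counts, 1 file a library. Per the file headers they were made by featureCounts 1.4.6-p4 from exons summed to genes, strand setting 2, both mates mapped, GENCODE M13, from STAR alignments; the STAR version and the handling of multi-mapping reads are not given in the sources used here, so reads shared with near-identical copies are uncertain. Per the labels, coordinates are mm10. Total RNA-seq is the labelled assay, whereas a linked library protocol is named for polyA+ RNA; which holds was not settled. Symbols came from GENCODE M21 (50376 of 50600 identifiers).

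TPM used the deposited exonic length. Spread was tested with edgeR 4.0.16 (R 4.3.3): TMM, filterByExpr, intercept-only robust quasi-likelihood fit, comparing a gene's own quasi-dispersion (3 degrees of freedom) with the trended prior (13.9), Benjamini-Hochberg over 12285 genes; the script was tested on simulated data. DESeq2 1.42.0 gave alternatives. Gene pairs were compared within libraries by exact sign-flip permutation on log2(TPM + 1). Log2 CPM used a prior count of 2. Promoter sequences are RefSeq's (GRCm38.p6).

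The members and gene lists were chosen with earlier results of these data known. Named were the members, the 2 highest genes of a list, genes of a pair or share, listed targets at 1 TPM and list genes past the threshold; not all are printed, and 1 of the 7 gene pairs is not reported here. The 3 closest genes to Ezh1 and Ezh2 were sought among protein-coding genes averaging at least 5 TPM. Alternatives covered pseudocount, length, scaling, filters, detection floor and each replicate left out. Scripts ran under Python 3.11.15 (pandas 2.3.3, numpy 2.4.6, scipy 1.17.1); matplotlib 3.10.9 drew the plots.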

Additional observations from a re-analysis of the deposited data

Results flagged for a closer look

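Epop in replicate 1, at 155 TPM, stood apart from the other libraries at 171, 174 and 171 TPM: its gap to the nearest of them was 0.863 of the whole range, above Dixon's 95% critical value for 4 samples. It was the 1 value so marked among 43 examined, and chance marks about 1 in 20. The edgeR adjusted p for the spread of Epop was 0.996.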

How the results depend on the processing

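The pair differences kept their direction under the alternatives run, except that Jarid2 minus Mtf2 became 0.54 with counts in place of TPM, since Jarid2 has the longer exonic length. The Ezh1 share was 11.7% with the longest transcript and 16.7% from counts. Genes past the spread threshold numbered 142 with no filter beyond 1 count (20867 genes tested), 15 with a fit that is not robust and 68 as DESeq2 dispersion outliers; with 1 replicate left out they ran from 14 (without replicate 3) to 27, and 0 of the 10 members passed under any of these. Members at 1 TPM or more stayed at 10, also at a floor of 5 TPM. No paired analysis was possible because the series has a single group, so replicate numbers pair no samples across groups; only genes were compared within libraries. With 4 libraries no sign-flip p can pass 0.05, and intervals and count limits cover counting error only.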
